A study of Homo sapiens with 12 samples.

Results

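The human APOBEC3 family comprises 7 members, *APOBEC3A*, *APOBEC3B*, *APOBEC3C*, *APOBEC3D*, *APOBEC3F*, *APOBEC3G* and *APOBEC3H*. They were chosen by symbol, and all 7 were found among the 60612 rows of the count table that were used. Counts came from RNA sequencing of ZR-75-1, an oestrogen receptor-positive human breast cancer cell line. All 4 groups were ZR-75-1 cells given CRISPR–Cas9 with a non-targeting guide (sgControl) or with a guide that knocked out *RB1* (RB1KO). *RB1* is the gene for the retinoblastoma protein Rb. Cells of each genotype were cultured for 5 days in the solvent DMSO or in 500 nM abemaciclib, an inhibitor of CDK4 and CDK6. There were 3 replicates per group, described in the methods as biological replicates. The methods describe the knockout lines as single-cell-sorted clones, so the loss of *RB1* and the clone that carries it cannot be told apart.

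APOBEC3 enzymes are cytidine deaminases that convert cytosine to uracil in single-stranded DNA and act against retroviruses and retrotransposons. *APOBEC3A*, *APOBEC3C* and *APOBEC3H* encode proteins with a single deaminase domain, whereas the other members encode proteins with a pair of them. *APOBEC3B* encodes the predominantly nuclear member, which is often overexpressed in breast cancer and is linked to C-to-T and C-to-G mutations at TC dinucleotides. Its transcription is known to be restrained by the DREAM complex, in which the Rb relatives p130 and p107 hold E2F4 on cell cycle promoters, and by Rb–E2F complexes; NF-κB can activate it. *APOBEC3G* and *APOBEC3H* are best known from T cells, and *APOBEC3A* from myeloid cells and interferon-treated cells.

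The members lie head to tail on the plus strand of chromosome 22 between *CBX6* and *CBX7*. On GRCh38, in GENCODE release 44, they are annotated in the following order. *APOBEC3A* spans chr22:38952741-38963184 and *APOBEC3B* spans chr22:38982347-38992804. *APOBEC3C* follows at chr22:39014257-39020352, *APOBEC3D* at chr22:39021113-39033277 and *APOBEC3F* at chr22:39040604-39055972. *APOBEC3G* is at chr22:39077067-39087743 and *APOBEC3H* at chr22:39097224-39104067. The members arose by duplication, and parts of their coding sequence are still identical, which bears on how reads can be assigned between them. The longest identical coding runs that *APOBEC3B* shares with *APOBEC3A*, *APOBEC3D* and *APOBEC3F* are shown for that reason. They are exonic, read 5′ to 3′ on the plus strand from the GENCODE transcripts, and capitals mark the codons of the zinc-coordination motif of the deaminase domain that a search of the reading frame found.
APOBEC3B with APOBEC3A: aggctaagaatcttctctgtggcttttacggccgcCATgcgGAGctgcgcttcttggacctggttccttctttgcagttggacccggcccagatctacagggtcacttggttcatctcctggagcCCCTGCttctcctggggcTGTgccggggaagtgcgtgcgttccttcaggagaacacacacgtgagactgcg
APOBEC3B with APOBEC3D: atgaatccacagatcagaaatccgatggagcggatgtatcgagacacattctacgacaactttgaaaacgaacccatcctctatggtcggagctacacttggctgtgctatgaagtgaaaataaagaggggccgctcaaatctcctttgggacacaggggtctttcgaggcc
APOBEC3B with APOBEC3F: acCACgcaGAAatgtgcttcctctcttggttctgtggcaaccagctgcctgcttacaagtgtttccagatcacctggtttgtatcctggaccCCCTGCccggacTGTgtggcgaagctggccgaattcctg

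The run shared with *APOBEC3A* is 196 bases long and lies in exons 5 and 6 of *APOBEC3B* (chr22:38989609-38991525, with the intron between them). It contains a whole zinc motif, the second of 2 in *APOBEC3B*. The 172 bases shared with *APOBEC3D* begin at the start codon and cross from exon 1 to exon 2 (chr22:38982454-38984229). The 131 bases shared with *APOBEC3F* lie in exon 3 (chr22:38985831-38985961) and contain the other zinc motif of *APOBEC3B*. The same search found 1 motif in the coding sequences of *APOBEC3A*, *APOBEC3C* and *APOBEC3H* and 2 in those of *APOBEC3D*, *APOBEC3F* and *APOBEC3G*. The runs that *APOBEC3B* shares with *APOBEC3G*, *APOBEC3C* and *APOBEC3H* were only 38, 23 and 20 bases.

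To measure how far this limits the counts, each member's canonical transcript was cut into all windows of 100 bases, the read length that the general methods give. Of the *APOBEC3B* windows, 21.9% also occurred in a transcript of another gene, and 20.5% in another member. This share was 13.9% for *APOBEC3A*, 7.3% for *APOBEC3G*, 6.0% for *APOBEC3F* and 0.0% for *APOBEC3C* and *APOBEC3H*. *APOBEC3D* differed, with 84.8% of its windows held by another gene, since an unnamed readthrough gene (ENSG00000284554) covers 2104 of its exon bases. Most windows of *APOBEC3B* were thus found in no other gene, and the same held for all windows of *APOBEC3C* and *APOBEC3H*, but for few of *APOBEC3D*. In addition, 244 exon bases of *APOBEC3B* (12.9%) lie opposite *APOBEC3B-AS1*, an antisense RNA. Because it is not stated whether strand was used in counting, reads in that stretch cannot be assigned with certainty.

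**Figure D1:**
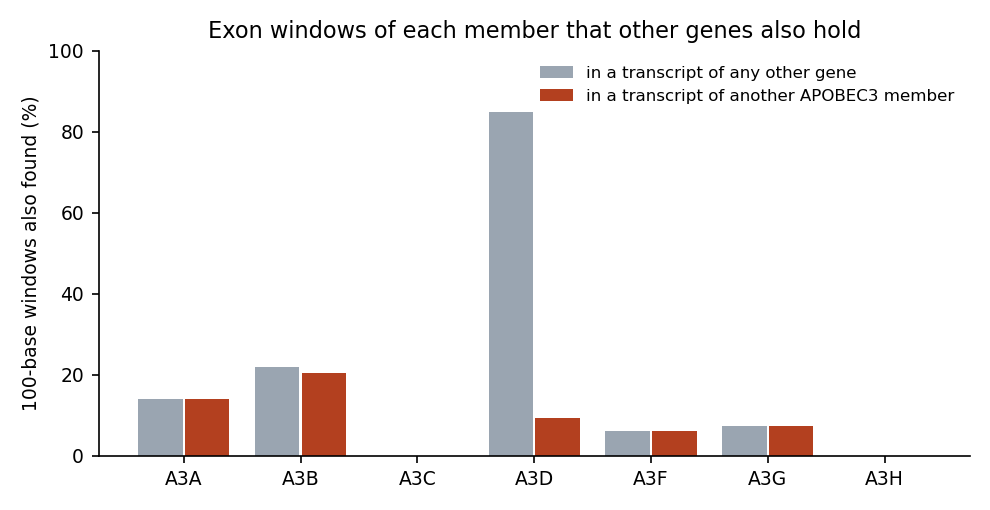
Bars give, for each APOBEC3 member (horizontal axis), the percentage of 100-base windows of its canonical transcript that also occur in a transcript of any other gene (grey) or of another member (red). APOBEC3D stands out at 84.8%, almost all of it from a readthrough gene, and APOBEC3C and APOBEC3H have no shared window.

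*APOBEC3B* was the only member with substantial expression, and *APOBEC3D*, *APOBEC3F* and *APOBEC3G* had no count in any of the 12 libraries. Over all libraries, *APOBEC3B* held 9931 of the 10031 counts of the family, or 99.0% (95% exact Clopper–Pearson interval 98.8 to 99.2%), and at least 97.6% in each library. *APOBEC3H* held 82 counts, *APOBEC3C* 13 and *APOBEC3A* 5. These intervals cover counting error only.

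Levels of different members were compared as normalised counts per kilobase of annotated exon, where a normalised count is a count divided by the library's size factor. On this scale *APOBEC3B* was at 547 ± 53.4 (SD, n = 3) in sgControl cells in DMSO, 323 ± 5.77 in sgControl cells in abemaciclib, 350 ± 14.0 in RB1KO cells in DMSO and 448 ± 5.6 in RB1KO cells in abemaciclib. *APOBEC3H* was second in order, at 2.66 ± 1.41, 0.235 ± 0.407, 9.61 ± 1.53 and 11.1 ± 2.36 in the same groups. Pooled over all libraries, the level of *APOBEC3B* per kilobase was 79.9 times that of *APOBEC3H*, 1065 times that of *APOBEC3C* and 2107 times that of *APOBEC3A*. The levels of *APOBEC3C* and *APOBEC3A* rested on too few counts to be ordered against each other.

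For the members without a count, the limit of 3 counts over all libraries set bounds. *APOBEC3B* was at least 9105 times higher per kilobase than *APOBEC3F* and at least 9385 times higher than *APOBEC3G*. For *APOBEC3D* the bound was 4416 times over all its exons, but 852 times when only the 425 exon bases that no other gene covers were counted. Whether *APOBEC3D* was transcribed below that limit could not be detected at this depth.

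**Figure D2:**
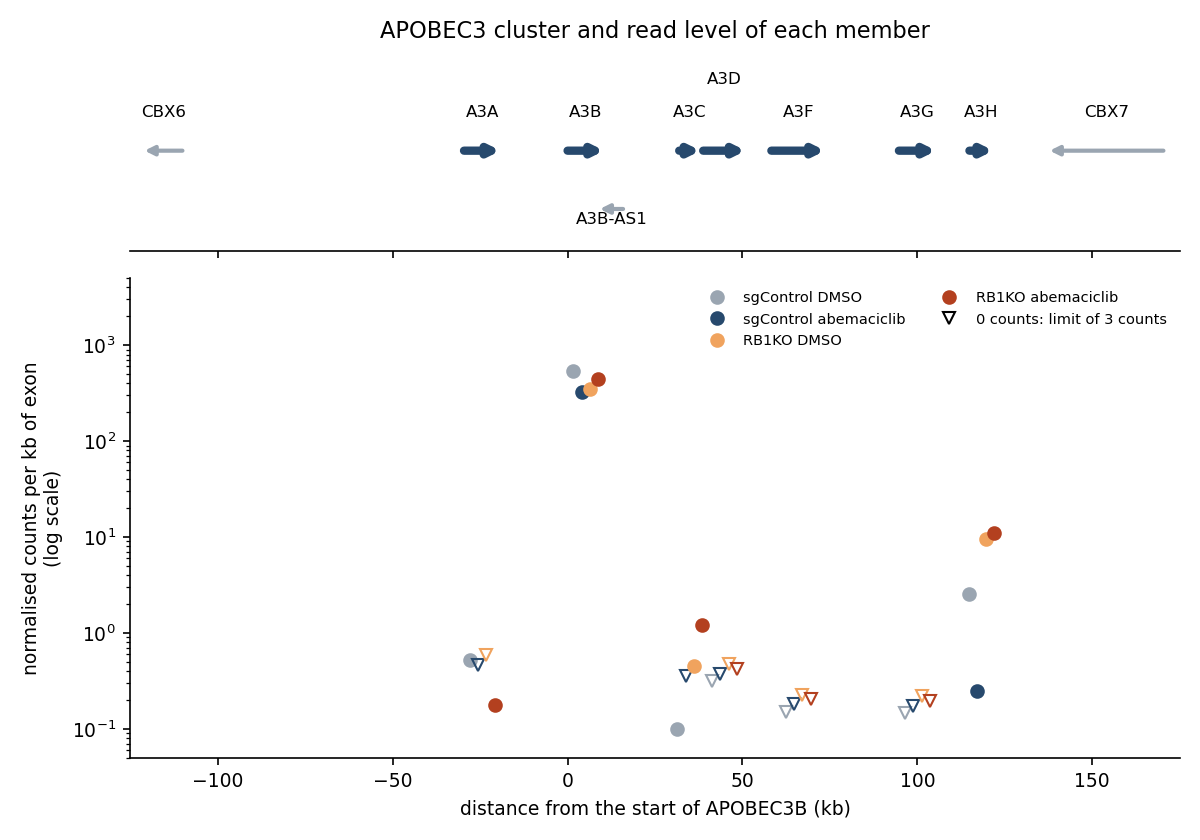
The top panel shows the 7 members (blue arrows), CBX6 and CBX7 beside them and the antisense APOBEC3B-AS1 (grey), in kilobases from the start of APOBEC3B. The lower panel gives the level of each member in the 4 groups as counts of 3 libraries pooled, normalised and divided by exon length, on a log scale. Open triangles mark groups with 0 counts, drawn at the limit of 3 counts. APOBEC3B lies between 323 and 542 in every group, far above every other member.

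Library depth was 39907318 to 81636393 counts. *RB1* had 29 to 63 raw counts in the 6 knockout libraries and at least 2090 in each sgControl library, so no library went against its label. Among markers of the labelled cell type, all 6 luminal epithelial genes were detected in every group, with summed normalised counts of 605100 to 950400 per library. The 6 lymphoid markers summed to 3.78 to 21.4 per library, and *CD3E*, which defines T cells, was at 0 in every library. The share of mitochondrial counts was 2.82 to 4.13% in DMSO and 5.44 to 8.53% in abemaciclib; its part in the results below was not tested.

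The first comparison asked how the family responds to CDK4/6 inhibition when Rb is present. *APOBEC3B* fell. Its normalised counts in sgControl cells were 1153, 977 and 979 in DMSO and 600, 614 and 622 in abemaciclib. Every treated library was below every DMSO library, and the spread was widest in DMSO, where replicate 1 was highest. The mean went from 1037 ± 101 to 612 ± 10.9 (SD, n = 3), a log2 fold change of −0.76 ± 0.08 (SE; 95% interval −0.92 to −0.60), or a fall to a level lower by 1.69-fold, with an adjusted p of 3.32e-19 in DESeq2. In bulk RNA, fewer cells that express a gene and less RNA per cell cannot be told apart.

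*APOBEC3H*, which encodes a single-domain member with natural variants of differing stability, also fell, from a much lower level. Its raw counts were 3, 6 and 3 in DMSO and 0, 0 and 1 in abemaciclib. The groups did not overlap. The ratio of DMSO to abemaciclib was 10.1, with an exact counting interval of 1.49 to 431 (95%), and the log2 fold change was −3.26 ± 1.34 (adjusted p = 0.0312). The call was lost when only the 6 sgControl libraries were fitted (adjusted p = 0.103) and when replicate 2 in DMSO, or replicate 1 or 2 in abemaciclib, was left out (adjusted p = 0.101, 0.128 and 0.157). *APOBEC3A* had 0, 4 and 0 counts in DMSO and none in abemaciclib, and *APOBEC3C* had 0, 0 and 1 and none.

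Of the 7 members, 2 were lower and 0 were higher in abemaciclib in sgControl cells, with 3 reaching an adjusted p-value. Across all 22723 genes tested, 49.8% passed the threshold, 24.8% lower and 25.0% higher. *APOBEC3B* was within the bulk of these responses: 20.1% of the tested genes had a lower log2 fold change.

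The second comparison asked the same of cells without Rb. Here *APOBEC3B* rose. In RB1KO cells its normalised counts were 667, 690 and 637 in DMSO and 838, 859 and 850 in abemaciclib. Again the groups did not overlap, but in the opposite order to sgControl cells. The mean went from 664 ± 26.6 to 849 ± 10.6, a log2 fold change of 0.35 ± 0.09 (95% interval 0.19 to 0.52), or 1.28-fold, with an adjusted p of 0.00027. *APOBEC3H* had raw counts of 10, 9 and 11 in DMSO and 15, 13 and 11 in abemaciclib, and no difference was detected (log2 fold change 0.21 ± 0.59, adjusted p = 0.841; ratio 1.16, counting interval 0.702 to 1.93). *APOBEC3C* had 2, 0 and 1 counts in DMSO and 2, 3 and 4 in abemaciclib. Of the 7 members, 1 was higher and 0 were lower, with 2 reaching an adjusted p-value, against 14.9% higher and 15.1% lower among 18546 genes tested (30.0% in either direction).

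The difference between these responses was tested directly. For *APOBEC3B* the interaction of drug and knockout was 1.11 ± 0.12 on the log2 scale (95% interval 0.88 to 1.34, adjusted p = 1.26e-19). An exact permutation test of *APOBEC3B* alone, two-sided, in which drug labels were exchanged within each genotype over 400 assignments, gave p = 0.005, the smallest that they can give. The test assumes no drug effect in either genotype, so a response common to both raises its p. Within a genotype, an exact test of 3 libraries against 3 cannot go below p = 0.1. For *APOBEC3H* the interaction was 3.47 ± 1.46 (adjusted p = 0.0433), and the exact permutation p was 0.02. That call did not hold with the replicate block (adjusted p = 0.0555), without independent filtering (adjusted p = 0.0668) or in 7 of the 12 fits that left out a library. The libraries concerned were replicate 2 of sgControl in DMSO, replicates 1 and 2 of sgControl in abemaciclib, replicates 2 and 3 of RB1KO in DMSO and replicates 1 and 2 of RB1KO in abemaciclib (adjusted p = 0.0547 to 0.154). Of the 7 members, 2 had a higher and 0 a lower response in RB1KO cells, against 21.1% and 20.3% of 20932 genes tested (41.4% in either direction).

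**Figure D3:**
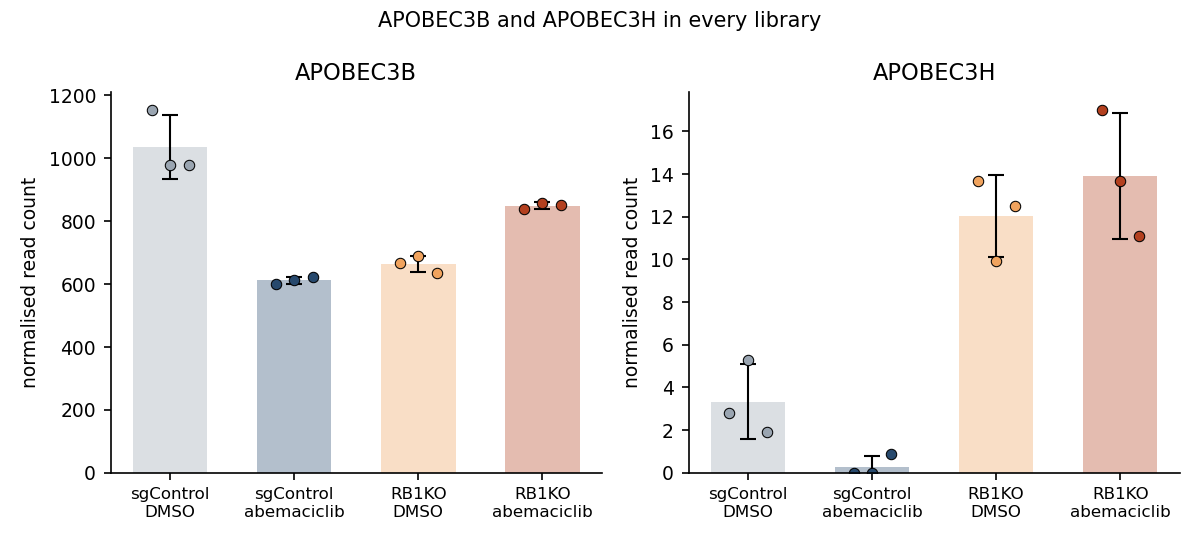
Normalised read counts of APOBEC3B (left) and APOBEC3H (right) in each of the 12 libraries (points), with the mean (bar) and SD (whisker) of 3 replicates in each of the 4 groups; both axes start at 0 and differ in range. APOBEC3B fell with abemaciclib in sgControl cells and rose in RB1KO cells, and APOBEC3H was higher in both RB1KO groups than in either sgControl group.

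The remaining comparisons asked what the knockout did at a fixed treatment. They share libraries with the comparisons above and are not independent of them. In DMSO, *APOBEC3B* was lower in RB1KO cells (637 to 690 normalised counts) than in sgControl cells (977 to 1153), with a log2 fold change of −0.64 ± 0.08 (adjusted p = 4.54e-13). In abemaciclib the order turned, with 838 to 859 in RB1KO cells and 600 to 622 in sgControl cells (adjusted p = 8.16e-08, with 0.47 ± 0.08 as the log2 fold change). The 4 groups thus stood, from high to low, as sgControl in DMSO, RB1KO in abemaciclib, RB1KO in DMSO and sgControl in abemaciclib, and no pair of groups overlapped. The lowest pair were separated by a gap only from 622 to 637, and the differences between groups that changed both genotype and drug were not tested.

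*APOBEC3H* was higher in RB1KO cells at either treatment. In DMSO it had 30 counts over 3 RB1KO libraries and 12 over 3 sgControl libraries, a ratio of 3.77 (counting interval 1.87 to 8.08) and a log2 fold change of 1.89 ± 0.68 (adjusted p = 0.0182). In abemaciclib it had 39 counts against 1, a ratio of 44.1 (counting interval 7.46 to 1785) and a log2 fold change of 5.36 ± 1.29 (adjusted p = 9.06e-05). In neither treatment did the libraries of RB1KO and sgControl cells overlap. The call in DMSO was lost when replicate 1 or 3 of either group was left out (adjusted p = 0.0634 and 0.121 for sgControl, 0.0752 and 0.0666 for RB1KO). None of the 100-base windows of *APOBEC3H* was found in a transcript of another gene.

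*APOBEC3C*, a single-domain member, had 9 counts in RB1KO cells and 0 in sgControl cells in abemaciclib, which makes it at least 3.39-fold higher against a floor of 3 counts over the group (adjusted p = 0.0478). With the counting error of the 9 counts included, the exact lower 95% limit of the ratio was 2.23. It was too low to be tested in edgeR. The call was lost with the replicate block (adjusted p = 0.0799), which counts here because same-numbered libraries of these groups deviated together, and in 11 of 15 alternatives in all. Among the 10 fits without 1 library that gave a value, the adjusted p ranged from 0.0419 to 0.103. It was lost without any 1 of the sgControl libraries in abemaciclib, without replicate 1 of RB1KO in abemaciclib, without replicate 1 or 3 of RB1KO in DMSO or without replicate 3 of sgControl in DMSO. In DMSO, of the 7 members, 1 was higher and 1 lower in RB1KO cells, against 19.2% and 18.2% of 16755 genes tested (37.4% in all). In abemaciclib 3 were higher and 0 lower, or 2 higher with the replicate block, against 28.5% and 27.4% of 21529 genes (55.9% in all).

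The promoter of *APOBEC3H* was examined because this member differed between genotypes at both treatments. It is the only one of the 7 with an entry in the RefSeq promoter table used here, which covers 250 bases before to 50 after the gene start (GRCh38.p14, chr22:39096994-39097293, plus strand). Capitals mark a direct repeat of 23 bases that occurs at a spacing of 26 bases.
APOBEC3H promoter: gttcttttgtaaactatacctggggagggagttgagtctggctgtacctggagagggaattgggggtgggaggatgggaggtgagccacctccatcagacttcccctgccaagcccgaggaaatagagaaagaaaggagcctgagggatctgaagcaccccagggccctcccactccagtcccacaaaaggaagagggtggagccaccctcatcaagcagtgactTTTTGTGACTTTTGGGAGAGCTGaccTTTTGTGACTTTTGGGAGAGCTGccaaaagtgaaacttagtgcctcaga

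This window held 1 CG dinucleotide, against 47 and 50 in the promoters of *CBX6* and *CBX7* on either side of the cluster and a median of 14 over 35116 promoters. On both strands it had no match to the E2F site letters TTTGGCGC, TTTCCCGC, TTTGCCGC or TTTCGCGC, which 3.3% of all promoters held. Nor did it match the cell cycle homology region of DREAM target genes (TTTGAA or TTCGAA, in 16.4% of promoters) or the interferon-stimulated response element (GAAA, then NN, then GAAA; in 3.6%). Such a search says only which letters the window holds.

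The members were next compared with their neighbours, to see whether the response of *APOBEC3B* was shared along the chromosome. Against the other members with a count, the interaction of *APOBEC3B* on the log2(normalised count + 1) scale could not be told apart. It differed by −0.81 from that of *APOBEC3H* (exact permutation p = 0.23, adjusted 0.69 over 3 members), by −0.16 from *APOBEC3C* (exact p = 0.875, adjusted 0.97) and by 0.04 from *APOBEC3A* (exact p = 0.97, adjusted 0.97). These differences depended on the pseudocount. With a pseudocount of 5 they became 0.32, 0.66 and 0.76, and the last then had an exact p of 0.045.

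The 9 flanking genes, compared in this way after the low counts of the other members had been seen, all had counts in every group. The interaction of *APOBEC3B* exceeded that of 8 of them by 0.79 to 2.30 (two-sided exact permutation test, adjusted p = 0.00643 for 7 and 0.0281 for *CBX7*, over 9 genes). These 8 were *DNAL4*, which encodes an axonemal dynein light chain, *NPTXR*, the neuronal pentraxin receptor, *CBX6* and *CBX7*, which encode Polycomb proteins, *PDGFB*, a growth factor, *RPL3*, a ribosomal protein, *SYNGR1*, a synaptic vesicle protein, and *TAB1*, a partner of the kinase TAK1. Of these, *SYNGR1* and *TAB1* had responses of their own that differed between genotypes in the opposite direction. *SYNGR1*, which gave the 2.30, rose by 1.36 ± 0.05 with abemaciclib in sgControl cells (adjusted p = 1.68e-147) and had an interaction of −1.19 ± 0.08 (adjusted p = 2.84e-51), and that of *TAB1* was −0.34 ± 0.08 (adjusted p = 3.54e-05). The exception was *SUN2*, which encodes an inner nuclear membrane protein and lies beyond *NPTXR* (chr22:38733290-38794143, overlapping *DNAL4*, so that their reads may be split). *SUN2* fell from 6946, 7004 and 7167 normalised counts to 3077, 3128 and 3219 when sgControl cells were treated, a log2 fold change of −1.16 ± 0.05 (adjusted p = 4.96e-118). Every treated library was below every untreated one. The difference from *APOBEC3B* in the interaction was 0.20 (exact permutation p = 0.57). However, *APOBEC3B* minus *SUN2* rose with abemaciclib in both genotypes, by 0.41 in sgControl and 0.61 in RB1KO cells. Such a common shift raises p in this test, so it cannot show that the 2 interactions were alike.

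*SUN2* differed from *APOBEC3B* in its other values. In RB1KO cells it fell with abemaciclib, by 0.26 ± 0.05 on the log2 scale (adjusted p = 2.70e-06), where *APOBEC3B* rose, and in DMSO the knockout changed it by −0.08 ± 0.05 (adjusted p = 0.180). *CBX6*, the nearest gene on the *APOBEC3A* side, was higher in RB1KO cells in DMSO (log2 fold change 0.44 ± 0.05, adjusted p = 1.36e-16), and *CBX7*, the nearest on the *APOBEC3H* side, passed the threshold in none of the 5 comparisons. Within 1 Mb of the cluster, 28 other genes with a mean normalised count of at least 100 were present. Their median log2 fold change was 0.08 for abemaciclib in sgControl cells, −0.10 in RB1KO cells and −0.01 for the knockout in DMSO. In RB1KO cells none of the 28 had a higher response to abemaciclib than *APOBEC3B*, and for the knockout in DMSO none had a lower value. Of 11169 genes on other chromosomes with a mean normalised count of at least 100, 1272 had a higher response in RB1KO cells. For the knockout in DMSO, 338 of them had a lower value. Among all 18546 genes tested for abemaciclib in RB1KO cells, which include genes with lower counts, 77.9% had a lower log2 fold change than *APOBEC3B*. *APOBEC3B* was not at the extreme in the remaining comparisons of drug or knockout, since 3 of the 28 fell further with abemaciclib in sgControl cells and 5 of the 28 had a higher value for the knockout in abemaciclib. The antisense *APOBEC3B-AS1* had 0 to 2 counts in each library.

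**Figure D4:**
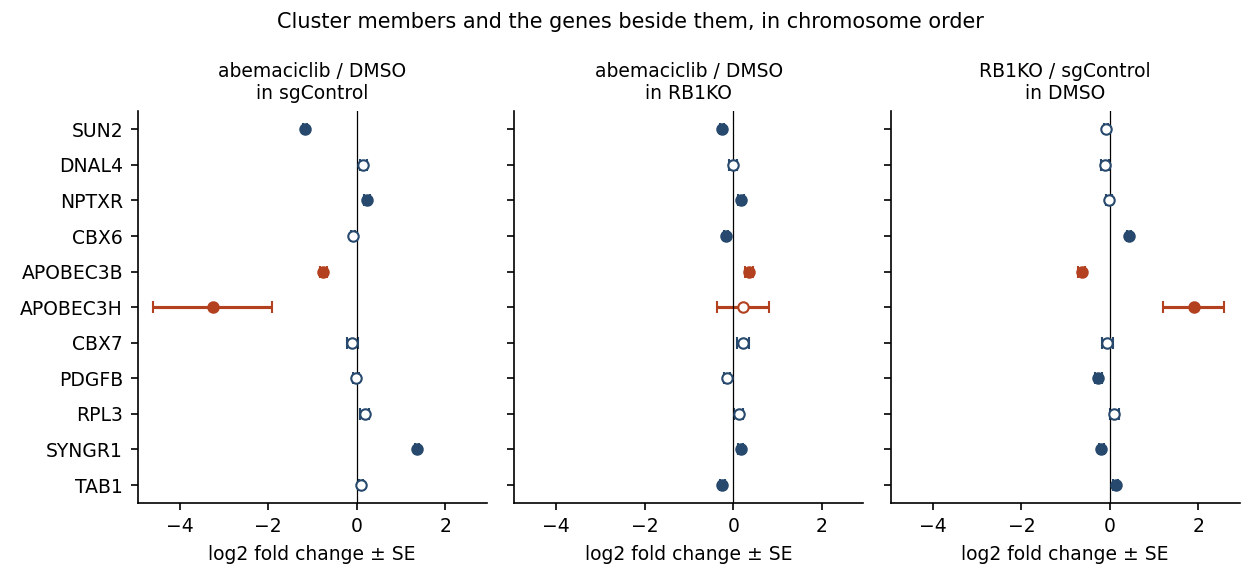
Log2 fold changes (points) with standard errors (whiskers) of APOBEC3B and APOBEC3H (red) and of 9 flanking genes (blue), listed in chromosome order, for abemaciclib in sgControl cells, abemaciclib in RB1KO cells and the knockout in DMSO. Filled points passed an adjusted p of 0.05 in DESeq2. SUN2 is the only flanking gene that fell in the first panel, and APOBEC3B is the lowest point of the third.

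The genes that share the known regulation of *APOBEC3B* were then set beside it. All 33 E2F and DREAM targets of the G1/S list fell with abemaciclib in sgControl cells, where 24.8% of all genes tested fell. Their median log2 fold change was −2.14, against 0.02 over all genes tested. Each of them fell by more than *APOBEC3B*. The helicase subunit genes *MCM2* and *MCM4* changed by −1.87 ± 0.05 and −1.16 ± 0.04, and *E2F1*, which encodes an activating E2F that Rb binds, by −0.99 ± 0.06. Of 26 DREAM targets of the G2/M list, 25 fell, with a median of −2.66, and *CENPF* and *TOP2A*, which act on mitotic chromosomes, changed by −3.36 ± 0.09 and −4.03 ± 0.08. The exception, chosen here after its values were seen, was *NUSAP1* with 0.63 ± 0.35 (adjusted p = 0.122) at a mean of only 17.9 to 30.5 normalised counts. *MYBL2*, which encodes the B-MYB subunit of the MuvB complex, went from 29500 to 9746 normalised counts (−1.60 ± 0.08).

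In RB1KO cells the medians of both lists were closer to that of all genes. Of the G1/S list 2 rose and 19 fell, with a median of −0.27. Of the G2/M list 1 rose and 9 fell, with a median of −0.10. Over all genes tested 14.9% rose and 15.1% fell, and the median was 0.02. *APOBEC3B* lay above all 33 of the first and above 25 of the 26 of the second. For the knockout in DMSO the medians were −0.02 (11 higher, 11 lower) and −0.18 (1 higher, 14 lower), and *APOBEC3B*, at −0.64, was lower than all 26 G2/M targets and than 32 of the 33 G1/S targets. Among all 16755 genes tested in that comparison, 6.32% had a lower log2 fold change than *APOBEC3B*. Of these 16755 genes, 19.2% passed the threshold as higher and 18.2% as lower. In abemaciclib 32 of the 33 and 25 of the 26 were higher in RB1KO cells, with medians of 1.82 and 2.36, and the value of *APOBEC3B* was below 32 and 24 of them. The interaction was positive for *APOBEC3B* and past the threshold for all 33 G1/S targets and 25 G2/M targets. Over all genes tested, 28.5% were higher in RB1KO cells in abemaciclib, and 21.1% had a positive interaction past the threshold.

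**Figure D5:**
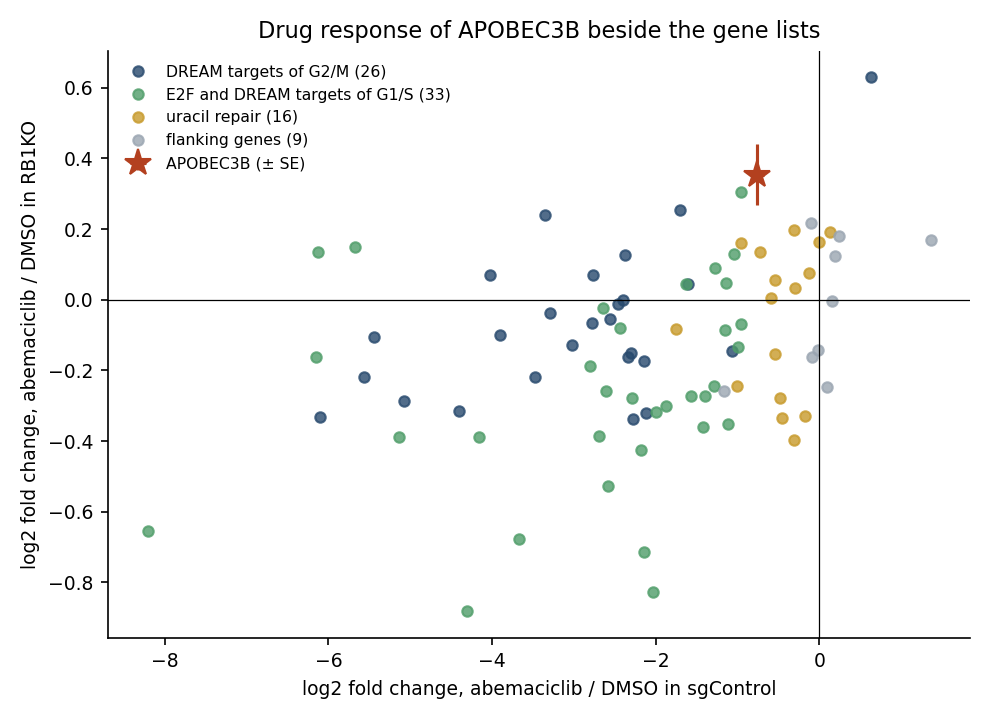
Log2 fold change with abemaciclib in sgControl cells (horizontal axis) and in RB1KO cells (vertical axis) for 26 G2/M and 33 G1/S targets, 16 uracil repair genes and 9 flanking genes (points) and for APOBEC3B (star, with standard errors). APOBEC3B sits to the right of every G1/S target and above all points but 1, a G2/M target.

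The list of DREAM and MuvB components and their regulators comprised 16 genes. In sgControl cells 10 fell and 3 rose with abemaciclib (median −0.37), where 24.8% of all genes tested fell and 25.0% rose. *CDKN1A*, which encodes the CDK inhibitor p21, changed by −2.12 ± 0.06. In RB1KO cells 4 fell and 2 rose, a share near the 30.0% of all genes that passed, with *CDKN1A* at −0.35 ± 0.06. In DMSO the knockout raised *CDKN1A* by 0.55 ± 0.06 (adjusted p = 2.44e-17), and 2 genes of the list were higher and 4 lower in all, likewise near the 37.4% of all genes.

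Uracil that APOBEC3 enzymes leave in DNA is excised by uracil glycosylases and repaired, so the 16 genes of that pathway were examined. In sgControl cells 12 fell and 0 rose with abemaciclib, with a median of −0.47, where 24.8% of all genes tested fell and 25.0% rose. *UNG*, which encodes the main uracil-DNA glycosylase, fell from 5708 to 2829 normalised counts (log2 fold change −1.01 ± 0.06, adjusted p = 5.55e-61), *PARP1* changed by −0.48 ± 0.04, and no change was detected for the abasic endonuclease gene *APEX1* (−0.01 ± 0.06, adjusted p = 0.934). In RB1KO cells 6 fell and 4 rose, where 15.1% of all genes tested fell and 14.9% rose. There *UNG* and *APOBEC3B* moved in opposite directions: *UNG* fell by 0.25 ± 0.06 (adjusted p = 0.000371). In DMSO the knockout changed *UNG* by 0.02 ± 0.06 (adjusted p = 0.811), where *APOBEC3B* was lower. The interaction passed the threshold for 9 of the 16 genes, all positive. Over all genes tested it passed for 41.4%, and was positive in 21.1%.

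NF-κB genes and interferon-stimulated genes were examined because NF-κB can activate *APOBEC3B* and *APOBEC3A* is known from interferon-treated cells. The NF-κB list also holds inhibitors of the pathway, so a rise in it is not a rise of activators alone. Of 9 NF-κB genes, 2 rose and 1 fell with abemaciclib in sgControl cells, 5 rose and 0 fell in RB1KO cells, and 4 were higher and 0 lower in RB1KO cells in DMSO. Over all genes tested, 49.8%, 30.0% and 37.4% passed in these comparisons in either direction. The first count was below that share and the last near it, but every call in the last was higher. There 19.2% of all genes were higher and 18.2% lower, and with abemaciclib in RB1KO cells 14.9% rose and 15.1% fell. In abemaciclib, 8 of the 9 were higher in RB1KO cells and 0 lower, with a median of 1.22. Of all genes tested, 28.5% were higher in that comparison and 27.4% lower. *NFKB2*, which encodes the p100 precursor, rose by 0.49 ± 0.06 with abemaciclib in RB1KO cells (adjusted p = 3.91e-16) and changed by −0.05 ± 0.06 in sgControl cells (adjusted p = 0.459), while *RELA* had −0.05 ± 0.07 in RB1KO cells (adjusted p = 0.636) and rose by 0.20 ± 0.07 in sgControl cells (adjusted p = 0.0111). Of 22 interferon-stimulated genes, 21 were tested in sgControl cells, where 7 rose and 4 fell with abemaciclib. In either direction this was near the 49.8% of all genes. In RB1KO cells 11 of 20 tested rose and 0 fell, with a median of 0.83. Over all genes tested there, 14.9% rose and 15.1% fell. The antiviral genes of the list with the most counts differed. *BST2*, which encodes tetherin, showed no detected change in either genotype (0.17 ± 0.08 and 0.05 ± 0.08, adjusted p = 0.0687 and 0.710), and *OAS3* fell by 2.56 ± 0.09 in sgControl cells.

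In RB1KO cells, *APOBEC3H* and 8 of 19 tested interferon-stimulated genes were higher in DMSO, and 0 of those genes were lower. Over all genes tested, 19.2% were higher and 18.2% lower. The share of the list that passed in either direction was near the 37.4% of all genes, but every call was higher. In abemaciclib, where *APOBEC3H* was also higher in RB1KO cells, 14 of 21 tested genes of the list were higher and 4 lower. Their median log2 fold change was 1.69. Over all genes tested there, 28.5% were higher and 27.4% lower. A link between these genes and *APOBEC3H* was not tested. The 6 lymphoid markers, which belong to cells known to express *APOBEC3H*, summed to 3.78 to 21.4 normalised counts in the sgControl libraries in DMSO and to 4.10 to 14.3 in the RB1KO libraries in DMSO. In abemaciclib they summed to 7.97 to 15.1 in sgControl libraries and to 9.06 to 15.1 in RB1KO libraries. The ranges overlapped in each comparison. The 4 myeloid markers summed to 449 to 549 in sgControl cells in abemaciclib and to 47.6 to 126 in the other groups. The rise was carried by *LYZ* alone (438, 534 and 544 against 16.7 to 33.5 in DMSO), in the group where *APOBEC3H* was lowest. Of the 4, 1 was higher and 2 were lower there than in DMSO. *ITGAM* had means of 23.3 in DMSO and 7.01 in abemaciclib in sgControl cells, and of 55.2 and 67.6 in RB1KO cells. For the knockout, 2 of the 4 were higher and 0 lower in DMSO, and 2 higher and 1 lower in abemaciclib. The part of these markers in the *APOBEC3H* result was not tested. The 3 fibroblast markers summed to 1879 to 3051 normalised counts per library, and *COL1A1* alone had group means of 1940 to 2903. Of the 3, 2 had an adjusted p-value in sgControl cells and both were higher in abemaciclib, where 25.0% of all genes tested were higher. In RB1KO cells *COL1A1* was higher in abemaciclib too (0.43 ± 0.07, adjusted p = 4.19e-09), and no change was detected for *DCN* (adjusted p = 0.943). The endothelial markers summed to at most 3.23.

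Other AID/APOBEC genes were almost silent. Of the 4 examined, 2 had any count, *APOBEC1* and *APOBEC4*, with group means of at most 1.11 and 0.359 normalised counts, and none reached an adjusted p-value.

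Finally, the genes whose levels followed *APOBEC3B* most closely over the 12 libraries were identified among 11885 genes with a mean normalised count of at least 100. By Pearson correlation of log2(normalised count + 1) they were *LYSMD2* (0.968), *AP1S2* (0.962), *MSX2* (0.960), *CBX3* (0.960) and *CEP20* (0.956). *AP1S2* encodes a clathrin adaptor subunit, *MSX2* a homeobox transcription factor, *CBX3* the heterochromatin protein HP1γ and *CEP20* a centrosomal protein. All 5 had the group order of *APOBEC3B*. *AP1S2*, for example, had means of 1307, 682, 742 and 983 normalised counts in sgControl DMSO, sgControl abemaciclib, RB1KO DMSO and RB1KO abemaciclib. *E2F1*, *MYBL2*, *UNG* and *CDKN1A* had correlations of 0.678, 0.669, 0.608 and 0.494 with *APOBEC3B*. The libraries fall into 4 groups and share their depth and scaling, so these values describe the pattern and are not a test. By Spearman correlation only *MSX2* was again among the closest 5. No other member reached that mean count, so none was searched for in this way.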

How the data were processed

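Total RNA of 12 ZR-75-1 samples, 4 groups of 3, was sequenced. Per the labels and the methods, the authors trimmed reads, aligned them to hg38 with STAR 2.7.5b, counted them per gene with featureCounts 2.0.1 on GENCODE annotation and deposited raw counts as whole numbers. The strand and multimapping settings are not given in the sources used here, and the labels name a directional kit where the general methods name a 3′ mRNA kit, so levels per kilobase depend on which was used. Of 60656 rows, 44 without a gene name, which held 0% of counts, were left out.

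Counts were fitted with DESeq2 1.42.0 in R 4.3.3 (all 12 samples, 1 term for group, Wald test, Benjamini–Hochberg adjustment, threshold 0.05) for 5 comparisons, namely abemaciclib in each genotype, their interaction and the knockout at each treatment. Adjusted p-values come from this fit unless an exact permutation test is named. Log2 fold changes are not shrunken and are given ± SE. On simulated data with known changes the fit gave the right direction for every changed gene it called, but made more false calls than its threshold allows, and more than edgeR. Alternatives were edgeR 4.0.16 with TMM, other size factors, filters, samples and pseudocounts, the replicate block, and leaving out each library. Comparison with flanking genes, and with bases that no other gene covers, was added after seeing the data. All 3 pairs of same-numbered libraries deviated together only between sgControl and RB1KO cells in abemaciclib (correlations 0.150, 0.259 and 0.112 over 11885 genes). Between sgControl cells in DMSO and in abemaciclib the same-numbered values were 0.245, 0.223 and −0.076, and differently numbered libraries reached 0.433.

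The members and lists were chosen with earlier results of these data known. Named genes were the 7 members, *RB1*, genes between *CBX6* and *CBX7*, the 2 most abundant genes of each list, *E2F1*, *MYBL2*, *CDKN1A*, *UNG* and the 5 genes most like *APOBEC3B*; others were named after their values were seen. 1 listed gene that the rule names is not reported here. Each replicate is a separate sample in the labels, and counts of no pair of replicates agreed within sampling noise. Intervals for counts are exact and cover counting error only.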

Additional observations from a re-analysis of the deposited data

Results flagged for a closer look

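The response of *APOBEC3B* to abemaciclib differed between genotypes. The interaction of drug and knockout was 1.112 on the log2 scale (SE 0.119; adjusted p = 1.26e-19 in DESeq2), with a fall in sgControl cells and a rise in RB1KO cells, and no library of a treated group overlapped with its DMSO group.

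The response of *APOBEC3H* also differed between genotypes, by 3.47 (SE 1.46; adjusted p = 0.0433). It rests on 12 counts against 1 in sgControl cells and on 30 against 39 in RB1KO cells. The call was lost with the replicate block (adjusted p = 0.0555), without independent filtering (adjusted p = 0.0668) and in 7 of the 12 fits that left out a library.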

How the results depend on the processing

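*APOBEC3B* kept its direction and passed the threshold in all 5 comparisons under every alternative run. Its log2 fold change ranged from −0.886 to −0.677 for abemaciclib in sgControl cells, from 0.324 to 0.383 in RB1KO cells, from 1.03 to 1.25 for the interaction, from −0.683 to −0.560 for the knockout in DMSO and from 0.454 to 0.585 in abemaciclib. With the replicate block these were −0.756, 0.354, 1.11, −0.639 and 0.472, and the block ended only the calls of *APOBEC3H* for the interaction and of *APOBEC3C*.

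The number of members past the threshold was 1 with only the 6 samples compared for abemaciclib in sgControl cells, and for the interaction 1 without independent filtering and 1 with the replicate block. Leaving out a library gave 1 to 2 in each of these comparisons and for the knockout in DMSO. In edgeR the adjusted p of *APOBEC3H* was 0.0116 for abemaciclib in sgControl cells, 0.0175 for the interaction and 0.00693 for the knockout in DMSO. The interaction was not fitted with only 6 samples, since it needs all groups.

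The difference in interaction between *APOBEC3B* and *APOBEC3A* was −0.438 with a pseudocount of 0.5 and 0.755 with 5, and ranged from −0.405 to 0.804 when a library was left out. From *APOBEC3C* it was 0.655 with a pseudocount of 5 and −0.607 to 0.368 without a library, and from *APOBEC3H* 0.320 with a pseudocount of 5. The cause was not tested. The value of *APOBEC3C* for abemaciclib in sgControl cells lay between −1.093 and 0.0576 when a library was left out.

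Scaling by total counts shifted the median of all genes by −0.133, 0.137 and 0.114 for abemaciclib in sgControl cells, the interaction and the knockout in abemaciclib. The share of calls that were higher went from 50.2% to 40.1% in the first and from 51.0% to 63.8% in the second. Depth limits *APOBEC3A*, *APOBEC3C*, *APOBEC3D*, *APOBEC3F* and *APOBEC3G*, for which 3 counts in a library correspond to 0.0367 to 0.0752 CPM.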
